A study of Mus musculus with 47 samples.

Results

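Transcript levels of 9 genes of the liver X receptor (LXR) system were followed in cultured mouse microglia of 5 Apoe genotypes, with and without myelin. The genes were chosen by name and not by their values, and all 9 were found among 53697 genes of the deposited table. They are the receptor genes Nr1h2 and Nr1h3, the cholesterol exporters Abca1 and Abcg1, and the targets Mylip, Pltp, Lpcat3, Arl4c and Cd5l. Primary microglia came from the forebrain of C57BL/6 mice. E4 and E3 mice, from Taconic, carry human APOE4 or human APOE3 in place of both mouse Apoe alleles. KO mice (Apoe_minus_minus) lack intact Apoe, Het mice (Apoe_plus_minus) keep 1 intact allele, and both came from 1 Jackson Laboratory line. WT mice came from a further Jackson Laboratory line. Each genotype was sampled after 3 h of myelin with collection 21 h later, and untreated at 24 h. The 47 libraries gave 5 per group, except for 4 in E3 myelin, E3 untreated and Het myelin. The labels give neither the ages of the mice nor which animal or culture a replicate came from. P-values therefore rest on the spread among libraries of a group, and that spread may be only technical. Human APOE cells differ from WT, KO and Het cells in supplier as well as in genotype, and these cannot be told apart. KO and WT cells came from different lines, and line and genotype cannot be told apart there either.

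LXRs are nuclear receptors that bind oxysterols, the oxidised derivatives of cholesterol, and act on DNA as partners of retinoid X receptors. When a macrophage takes up cholesterol-rich debris such as myelin, LXRs are known to switch on genes that move cholesterol out of the cell, limit its uptake and remodel membrane phospholipids. Apolipoprotein E is itself an LXR target and accepts the exported cholesterol in the brain.

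Promoter sequence is shown for Abca1, Mylip and Pltp, members that rose after myelin in some genotype. RefSeq held a promoter window (GRCm38.p6, 250 bases before to 50 after the annotated start) for 8 of the 9 genes, and none for Abcg1. Each sequence reads 5′ to 3′ along the gene, in lower case, and capitals mark any match to a spaced repeat of the kind LXR binds. The repeat was sought on both strands as GGTNA, then 5 bases of any kind, then GGTNA again.
Abca1, chr4:53159846-53160145, minus strand: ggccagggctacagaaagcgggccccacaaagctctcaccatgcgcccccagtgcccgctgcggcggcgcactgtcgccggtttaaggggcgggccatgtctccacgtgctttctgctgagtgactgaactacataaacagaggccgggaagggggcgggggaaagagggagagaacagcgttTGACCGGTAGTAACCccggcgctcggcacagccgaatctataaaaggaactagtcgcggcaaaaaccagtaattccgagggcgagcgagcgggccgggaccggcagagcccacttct
Mylip, chr13:45389492-45389791, plus strand: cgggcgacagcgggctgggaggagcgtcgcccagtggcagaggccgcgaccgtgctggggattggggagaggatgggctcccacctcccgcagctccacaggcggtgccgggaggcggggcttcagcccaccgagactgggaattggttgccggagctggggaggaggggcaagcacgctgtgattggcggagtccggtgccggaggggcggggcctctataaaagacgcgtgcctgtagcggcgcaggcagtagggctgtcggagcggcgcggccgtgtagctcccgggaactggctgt
Pltp, chr2:164857659-164857958, minus strand: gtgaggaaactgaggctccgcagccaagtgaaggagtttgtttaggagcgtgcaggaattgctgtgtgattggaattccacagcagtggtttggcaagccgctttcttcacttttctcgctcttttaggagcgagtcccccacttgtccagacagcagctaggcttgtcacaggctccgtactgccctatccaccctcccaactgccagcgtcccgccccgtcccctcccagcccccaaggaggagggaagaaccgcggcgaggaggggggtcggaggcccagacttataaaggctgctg
The Abca1 window held 1 match, which reads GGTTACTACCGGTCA on the opposite strand and begins at position -67 from the start. Such a match occurred in 0.718% of 32851 RefSeq mouse promoter windows of the same length. No match lay in the windows of the other 7 members, which says only that these letters are absent there.

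Levels are given as scaled TPM, the authors' TPM (a length-corrected share of transcripts) rescaled so that nuclear protein-coding genes make up 1000000 in each library, with a trimmed-mean factor on top. TPM are corrected for transcript length, so levels may be compared between genes, and read depth is unknown. The non-coding gene Gm23935 took 69.4% to 99.0% of TPM. Protein-coding genes held under 6% in 4 Het libraries (myelin replicates 1 and 2, untreated replicates 3 and 5). These 4 are shown but were left out of the fit. Het untreated replicate 2 also stood apart, with Abcg1 at the level of the Het myelin libraries, and the Het response of Abcg1 is given with and without it, while no other member's Het call changed without it. Mouse Apoe checked the labels: it held 67.8 to 90.0 scaled TPM in KO libraries, against 47646 to 84640 in WT libraries. Defining microglial markers were present in every library, with medians of 6937 scaled TPM for Tyrobp and 587 for Csf1r, though P2ry12 had a median of 4.64. Markers of other cells differed by genotype. The sum of 8 astrocyte markers was 1303 to 2715 scaled TPM in E4 myelin, 1692 to 2826 in E4 untreated, 841 to 949 in E3 myelin, 929 to 1088 in E3 untreated, 49.3 to 59.4 in KO myelin, 72.1 to 109 in KO untreated, 117 to 135 in WT myelin and 128 to 153 in WT untreated libraries. The sum of 8 fibroblast and pericyte markers was 119 to 435 in KO myelin and 125 to 798 in KO untreated libraries, against 2119 to 2857 in WT myelin and 1989 to 2564 in WT untreated libraries. In E4 it was 689 to 769 with myelin and 636 to 1044 untreated, and in E3 it was 1181 to 1588 with myelin and 1764 to 2229 untreated. Border macrophage and monocyte markers summed to 705 to 1061 in WT untreated and to between 258 and 684 in the other groups. Endothelial, neuronal and oligodendrocyte markers summed to at most 51.8 in any fitted library, and Cldn5 and Mog were each at 0 in 24 libraries. The part of these cells in the results was not tested. In such bulk RNA, fewer cells of a type and less RNA per cell cannot be told apart.

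After myelin, Abcg1, Abca1 and Mylip rose in E4 and in E3 microglia, and none of the 9 genes was called changed in WT microglia. Over all tested genes, myelin gave 12.1% called in E4, 5.15% in E3, 2.29% in KO, 0.119% in Het and 6.16% in WT. In KO microglia Pltp and Cd5l rose, but with any 1 KO library left out only 0 or 1 member was called. In untreated cells 7 of the 9 genes, Abcg1, Mylip and Nr1h3 among them, stood above WT, and Abca1 stood below. In that comparison 56.1% of all tested genes were called (25.8% higher, 30.3% lower). E4 microglia held more Nr1h3, Pltp and Cd5l than E3 microglia with and without myelin, though Cd5l passed the filter on low values only through E4 and KO libraries. Between E4 and E3, 11.1% of all tested genes were called after myelin and 16.8% untreated. The receptor genes themselves were not called changed by myelin in any of the 5 genotypes, except that Nr1h3 in KO was called when all libraries were weighted. A gene is called changed where limma's test, adjusted by the Benjamini-Hochberg method over 10894 genes, gave an adjusted p under 0.05. Differences are log2 fold changes ± SE, computed after adding 1 to each scaled TPM, and for low genes they are smaller than the true fold.

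The receptors come first. Nr1h3 encodes LXRα, the form enriched in macrophages, and lies on chromosome 2 from 91184061 to 91202834 in GRCm38 (ENSMUSG00000002108.10). KO libraries had 24.8, 19.3, 19.9, 21.8 and 20.5 scaled TPM after myelin and 14.9, 15.8, 18.8, 18.8 and 19.1 untreated. WT libraries had 8.49, 9.62, 8.21, 8.98 and 8.65 after myelin and 9.16, 8.60, 7.41, 8.18 and 7.39 untreated. Every KO library lay above every WT library. The difference between KO and WT was 1.18 ± 0.10 after myelin (limma adjusted p = 1.64e-12) and 1.01 ± 0.10 untreated (limma adjusted p = 6.58e-11). E4 libraries had 14.7, 14.2, 14.2, 11.1 and 15.4 scaled TPM of Nr1h3 after myelin and 15.3, 15.5, 14.6, 12.96 and 12.2 untreated. E3 libraries had 12.5, 8.13, 9.06 and 9.08 after myelin and 10.2, 8.77, 9.07 and 8.36 untreated. The untreated E4 and E3 libraries did not overlap, while after myelin E3 replicate 1 lay above E4 replicate 4. E4 exceeded E3 by 0.49 ± 0.11 after myelin (limma adjusted p = 0.00184) and by 0.58 ± 0.11 untreated (limma adjusted p = 1.72e-04). Myelin itself gave Nr1h3 differences of -0.02 ± 0.10 in E4, 0.07 ± 0.12 in E3, 0.27 ± 0.10 in KO, 0.27 ± 0.15 in Het and 0.10 ± 0.10 in WT, none of them called. The KO myelin libraries lay above the KO untreated libraries without overlap, and with all libraries weighted the KO difference was 0.28 and was called (limma adjusted p = 0.0448). Library weights had given more calls than expected between parts of a group in earlier results of these data.

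Nr1h2 encodes LXRβ, the widely expressed form, on chromosome 7 from 44549616 to 44553951 (ENSMUSG00000060601.13). It was the more abundant receptor transcript in every group, with group means of 80.0 to 111 scaled TPM in the fitted libraries, against 8.15 to 21.3 for Nr1h3. KO libraries held 107 ± 9.04 scaled TPM after myelin and 111 ± 7.07 untreated, and WT libraries held 90.5 ± 7.85 after myelin and 95.8 ± 9.11 untreated (SD, n = 5 each). KO was higher by 0.24 ± 0.08 after myelin (limma adjusted p = 0.0154) and by 0.22 ± 0.08 untreated (limma adjusted p = 0.0250). The untreated call was lost without KO replicate 2, KO replicate 3, WT replicate 1 or WT replicate 3, with adjusted p between 0.0506 and 0.0979. Nr1h2 differed between E4 and E3 by 0.16 ± 0.09 after myelin and 0.03 ± 0.09 untreated, neither called. Its myelin responses ran from -0.22 ± 0.12 in Het to 0.04 ± 0.08 in E4.

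**Figure D1:**
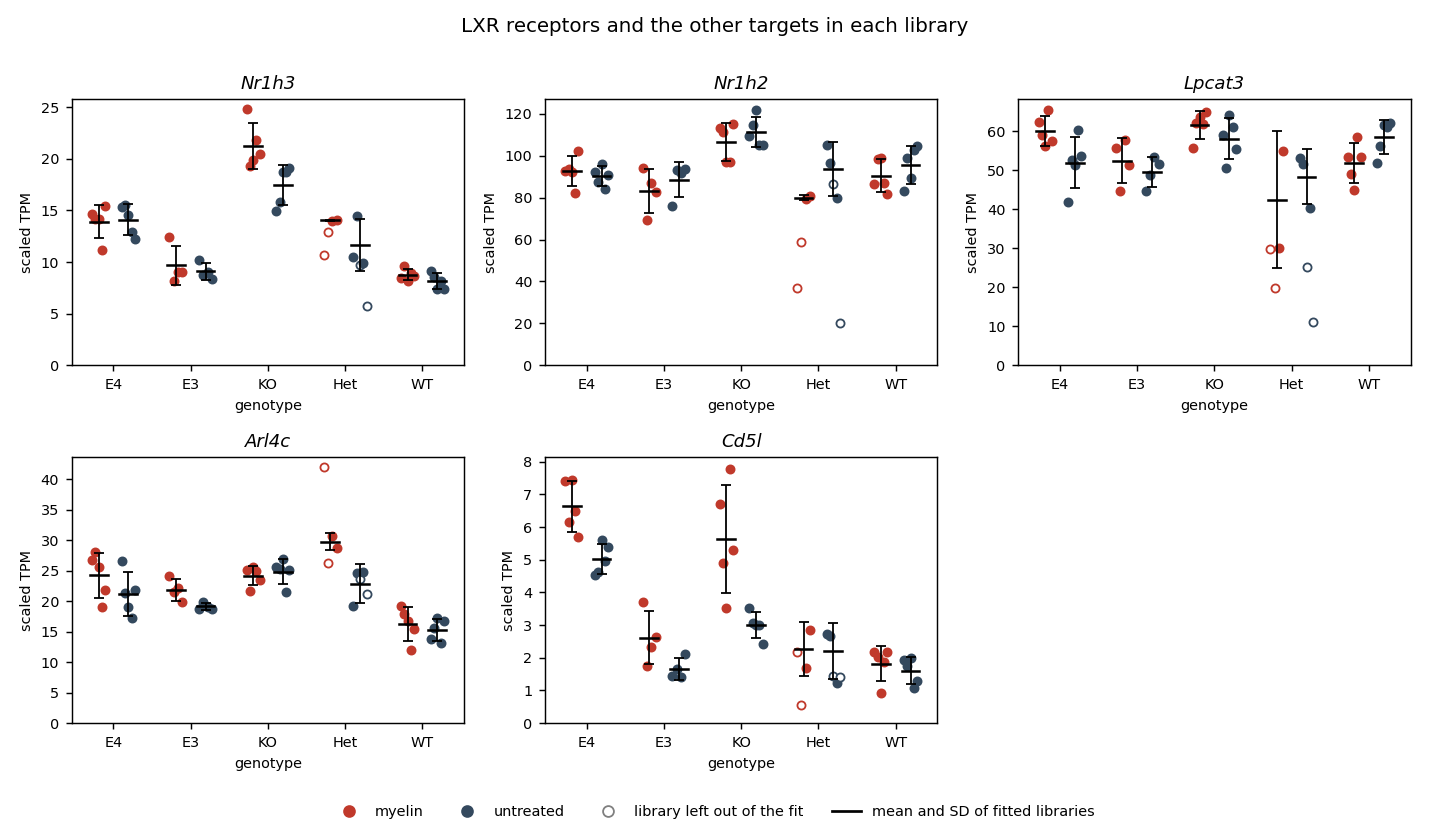
Scaled TPM (vertical axis, from 0) of Nr1h3, Nr1h2, Lpcat3, Arl4c and Cd5l in each of 47 libraries, by genotype, with myelin in red left of untreated in dark blue. Points are libraries, open points are the 4 Het libraries left out of the fit, and bars give the mean and SD of the others. For Nr1h3 all 10 KO libraries lie above all 10 WT libraries, and for Cd5l all E4 libraries lie above all E3 libraries.

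Abcg1, which exports cholesterol to lipoprotein particles, showed the widest fold range of group means among the 9 genes. It lies on chromosome 17 from 31057675 to 31117988 (ENSMUSG00000024030.6). E4 libraries had 44.8, 48.7, 48.1, 36.0 and 44.6 scaled TPM after myelin, against 6.69, 9.40, 8.15, 6.34 and 8.54 untreated. E3 libraries had 37.3, 22.0, 30.3 and 29.1 after myelin, against 5.20, 5.75, 6.22 and 6.20 untreated. In both genotypes every myelin library lay far above every untreated one. Abcg1 rose by 2.37 ± 0.21 in E4 (limma adjusted p = 9.42e-10) and by 2.14 ± 0.23 in E3 (limma adjusted p = 3.65e-07). KO libraries had 17.8, 14.5, 12.9, 16.7 and 19.4 scaled TPM after myelin, against 12.9, 12.4, 11.8, 12.3 and 11.4 untreated. WT libraries had 9.29, 8.07, 8.12, 6.02 and 6.82 after myelin, against 6.07, 6.67, 6.17, 5.70 and 6.79 untreated. The responses were 0.38 ± 0.21 in KO and 0.24 ± 0.21 in WT, and neither was called. All KO libraries stood above all WT libraries, by 0.995 ± 0.21 after myelin (limma adjusted p = 1.05e-04) and 0.86 ± 0.21 untreated (limma adjusted p = 5.85e-04). Abcg1 was 0.58 ± 0.22 higher in E4 than in E3 after myelin and 0.36 ± 0.22 higher untreated, and neither difference was called (limma adjusted p = 0.0868 and 0.297). With all libraries weighted, the difference after myelin was 0.63 and was called (limma adjusted p = 9.74e-04), though such weights are known to give too many calls in these data.

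In Het microglia the Abcg1 result turned on single libraries. Het myelin libraries had 23.7, 5.55, 19.7 and 30.7 scaled TPM, of which the first pair was left out of the fit. Het untreated libraries had 6.56, 25.0, 4.19, 4.60 and 2.66, of which the third and the fifth were left out. The response was 1.31 ± 0.30 and not called (limma adjusted p = 0.0610). Without Het untreated replicate 2 it was 1.98 ± 0.20 (limma adjusted p = 7.86e-08). That library was singled out by its Abcg1 value, so leaving it out widens the difference and narrows the SE by choice. This fit is therefore no test of the Het response. It also passed with all 47 libraries unweighted, without trimmed-mean factors, with a pseudocount of 0.1 and with no filter (limma adjusted p between 0.0161 and 0.0499). The fit takes 1 spread per gene over all groups, so Het untreated replicate 2 also entered the SE of Abcg1 in the other comparisons. Those comparisons are not given without that library. Across 10894 genes that library correlated at 0.985 with the mean of the other fitted Het untreated libraries and at 0.986 with the mean of the fitted Het myelin libraries. The same values were 0.982 and 0.984 for Het untreated replicate 4, and 0.987 and 0.984 for replicate 1. These correlations therefore do not set replicate 2 apart.

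Abca1 encodes the exporter that loads cholesterol and phospholipid onto lipid-poor apolipoproteins, on chromosome 4 from 53030787 to 53159895 (ENSMUSG00000015243.4). It is the member whose promoter window held the repeat shown above. E4 libraries had 79.4, 82.7, 77.8, 74.2 and 99.4 scaled TPM after myelin, against 40.4, 53.5, 54.6, 60.1 and 56.3 untreated. E3 libraries had 69.3, 43.3, 80.2 and 59.9 after myelin, against 30.5, 37.2, 37.4 and 33.6 untreated. Neither genotype showed overlap between myelin and untreated libraries, and E3 myelin replicate 2 came closest. Abca1 rose by 0.64 ± 0.13 in E4 (limma adjusted p = 0.00141) and by 0.82 ± 0.15 in E3 (limma adjusted p = 0.00180). KO libraries had 59.6, 58.8, 58.9, 64.2 and 76.5 after myelin and 60.8, 55.3, 54.9, 53.7 and 55.8 untreated. WT libraries had 74.3, 62.5, 68.0, 72.3 and 94.1 after myelin and 85.3, 78.9, 61.4, 97.0 and 85.3 untreated, the highest mean of the untreated groups. Untreated KO libraries all lay below untreated WT libraries, with a difference of -0.52 ± 0.13 (limma adjusted p = 0.00108), and after myelin the difference was -0.21 ± 0.13 and not called. The myelin responses were 0.17 ± 0.13 in KO, -0.53 ± 0.19 in Het and -0.13 ± 0.13 in WT, none called. Untreated E4 libraries exceeded untreated E3 libraries without overlap, by 0.59 ± 0.14 (limma adjusted p = 0.00273). After myelin that difference was 0.41 ± 0.14 (limma adjusted p = 0.0543), and it passed the threshold without E4 replicate 4, E3 replicate 1 or E3 replicate 3 (limma adjusted p = 0.0491, 0.0476 and 0.0133).

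**Figure D2:**
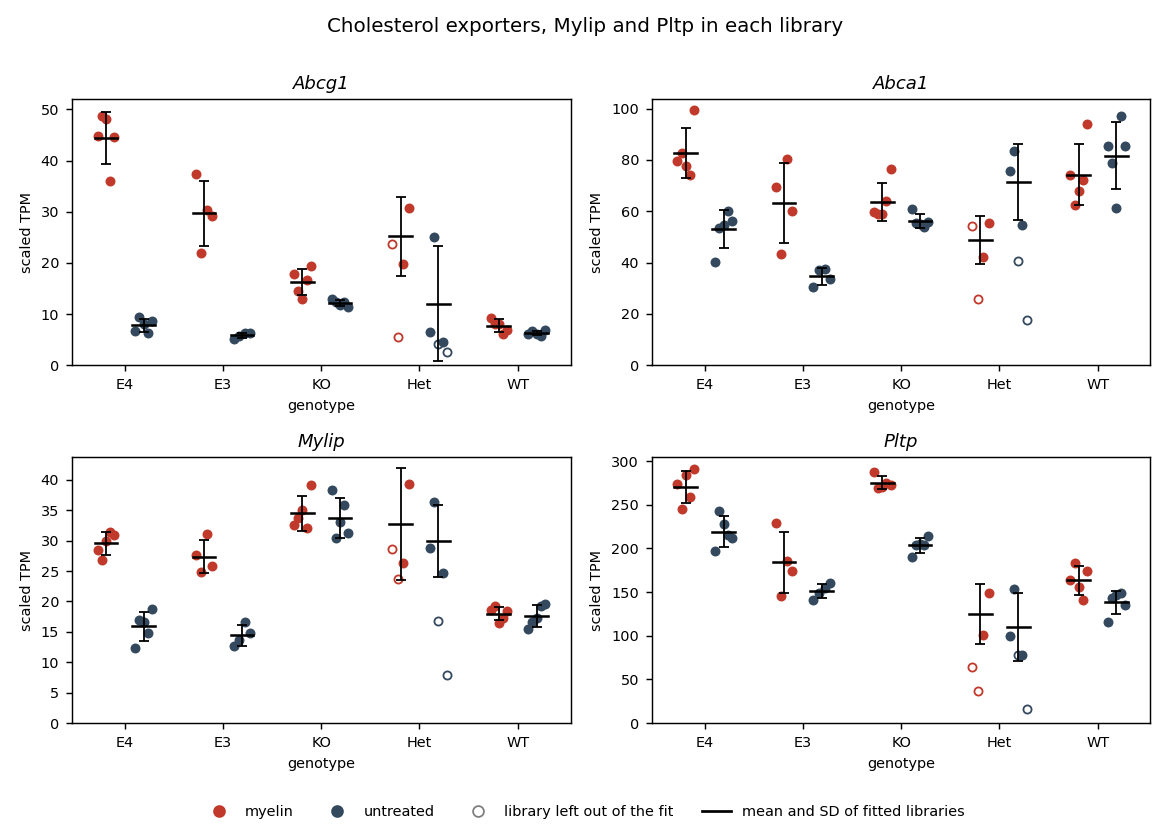
Scaled TPM (vertical axis, from 0) of Abcg1, Abca1, Mylip and Pltp in each of 47 libraries, by genotype, with myelin in red left of untreated in dark blue. Points are libraries, open points are the 4 Het libraries left out of the fit, and bars give the mean and SD of the others. Abcg1 reaches 36.0 to 48.7 in E4 myelin libraries and stays below 10 in WT libraries, while KO libraries hold 11.4 to 19.4.

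Mylip encodes the ubiquitin ligase IDOL, which is known to limit cholesterol uptake. It lies on chromosome 13 from 45389742 to 45412022 (ENSMUSG00000038175.10). E4 libraries had 28.5, 26.8, 29.99, 31.5 and 31.0 scaled TPM after myelin, against 12.4, 17.0, 16.6, 14.8 and 18.7 untreated. E3 libraries had 27.7, 24.9, 31.0 and 25.9 after myelin, against 12.6, 13.6, 16.7 and 14.8 untreated. The myelin and untreated libraries did not overlap in either genotype, and Mylip rose by 0.86 ± 0.10 in E4 (limma adjusted p = 5.32e-07) and by 0.88 ± 0.12 in E3 (limma adjusted p = 1.57e-05). KO libraries had 32.5, 33.7, 35.1, 32.1 and 39.2 after myelin and 38.3, 30.4, 33.0, 35.9 and 31.3 untreated. WT libraries had 18.6, 19.2, 16.4, 17.4 and 18.4 after myelin and 15.4, 16.6, 17.4, 19.2 and 19.6 untreated. The KO level was thus high with or without myelin, and every KO library stood above every WT library. KO exceeded WT by 0.90 ± 0.10 after myelin (limma adjusted p = 2.07e-09) and by 0.90 ± 0.10 untreated (limma adjusted p = 1.52e-09). The myelin response of Mylip was 0.03 ± 0.10 in KO, 0.12 ± 0.15 in Het and 0.03 ± 0.10 in WT, none called.

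Pltp encodes the phospholipid transfer protein, which moves phospholipid between lipoprotein particles, on chromosome 2 from 164839518 to 164857711 (ENSMUSG00000017754.13). It was the most abundant of the 9 transcripts in every group. KO libraries had 288, 270, 271, 275 and 272 scaled TPM after myelin, against 190, 204, 205, 204 and 215 untreated, with no overlap. It rose by 0.43 ± 0.12 in KO (limma adjusted p = 0.0327), but the call was lost without any of the KO libraries other than untreated replicate 5 (limma adjusted p between 0.0516 and 0.0840). E4 libraries had 274, 245, 284, 259 and 291 after myelin, against 197, 243, 229, 216 and 212 untreated. These did not overlap either, and the response of 0.30 ± 0.12 was not called (limma adjusted p = 0.0803). E3 libraries averaged 184 ± 34.8 after myelin and 151 ± 8.07 untreated (SD, n = 4 each), and WT libraries 164 ± 16.4 after myelin and 138 ± 13.3 untreated (SD, n = 5 each). Responses of 0.26 ± 0.13 in E3, 0.21 ± 0.17 in Het and 0.24 ± 0.12 in WT were not called. Pltp was higher in E4 than in E3 without overlap, by 0.57 ± 0.12 after myelin (limma adjusted p = 0.00127) and by 0.53 ± 0.12 untreated (limma adjusted p = 0.00176). KO also exceeded WT, by 0.75 ± 0.12 after myelin (limma adjusted p = 6.69e-07) and by 0.56 ± 0.12 untreated (limma adjusted p = 6.89e-05).

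Cd5l encodes a secreted macrophage protein that inhibits apoptosis, on chromosome 3 from 87357881 to 87371073 (ENSMUSG00000015854.7). It was the lowest of the 9 transcripts and reached the 5 scaled TPM of the low-value filter only in E4 and KO libraries. E4 libraries had 7.42, 6.15, 7.44, 6.48 and 5.68 scaled TPM after myelin and 4.54, 4.62, 5.61, 4.94 and 5.39 untreated. E3 libraries had 3.70, 1.75, 2.34 and 2.65 after myelin and 1.43, 1.65, 1.42 and 2.12 untreated. All E4 libraries lay above all E3 libraries, by 1.10 ± 0.18 after myelin (limma adjusted p = 3.29e-05) and by 1.18 ± 0.18 untreated (limma adjusted p = 6.47e-06). KO libraries had 6.71, 4.90, 3.51, 7.77 and 5.29 after myelin and 3.52, 3.05, 2.99, 3.01 and 2.41 untreated. WT libraries had 2.16, 2.01, 0.917, 1.86 and 2.16 after myelin and 1.93, 1.74, 1.99, 1.07 and 1.28 untreated. KO exceeded WT by 1.22 ± 0.17 after myelin (limma adjusted p = 7.65e-08) and by 0.63 ± 0.17 untreated (limma adjusted p = 0.00153). Because Cd5l entered the fit through groups where it is high, these 4 differences were also taken with no filter on low values. The adjusted p in limma was then 7.77e-05 for E4 against E3 after myelin, 1.57e-05 for E4 against E3 untreated, 2.24e-07 for KO against WT after myelin and 0.00323 for KO against WT untreated. In KO, Cd5l rose after myelin by 0.70 ± 0.17 (limma adjusted p = 0.0147), and the call was lost without KO myelin replicate 1, KO myelin replicate 4 or KO untreated replicate 5 (limma adjusted p = 0.0554, 0.0569 and 0.0523). Among KO libraries only myelin libraries reached the 5 scaled TPM of the filter. With no filter, Cd5l was the 1 member still called in KO. Its responses of 0.34 ± 0.17 in E4, 0.42 ± 0.19 in E3, 0.04 ± 0.24 in Het and 0.11 ± 0.17 in WT were not called.

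Lpcat3 and Arl4c showed no called myelin response. Lpcat3, the acyltransferase that puts polyunsaturated chains into membrane phospholipids, lies on chromosome 6 from 124663027 to 124704418 (ENSMUSG00000004270.13). It had group means of 42.4 to 61.6 scaled TPM over the fitted libraries. No myelin response was called, the values running from -0.23 ± 0.15 in Het to 0.21 ± 0.11 in E4. Without Het myelin replicate 4, which leaves 1 Het myelin library assumed to vary like the other groups, the Het value was -0.66 and was called (limma adjusted p = 0.0137). KO libraries averaged 61.6 ± 3.57 scaled TPM after myelin and WT libraries 51.9 ± 5.10 (SD, n = 5 each), a difference of 0.25 ± 0.11 (limma adjusted p = 0.0477). That call was lost without trimmed-mean factors (limma adjusted p = 0.0817) and with no filter (limma adjusted p = 0.0894). It was also lost when any of 8 of the 10 libraries compared was left out, all but KO replicate 1 and WT replicate 4 (limma adjusted p between 0.0533 and 0.140). Arl4c, a small GTPase of membrane traffic whose human form is known to promote cholesterol export, lies on chromosome 1 from 88673125 to 88702221 (ENSMUSG00000049866.12). KO libraries averaged 24.1 ± 1.56 scaled TPM after myelin and 24.8 ± 2.02 untreated, and WT libraries 16.3 ± 2.75 after myelin and 15.3 ± 1.76 untreated (SD, n = 5 each). The KO and WT libraries did not overlap, and KO was higher by 0.56 ± 0.11 after myelin (limma adjusted p = 3.79e-05) and by 0.67 ± 0.11 untreated (limma adjusted p = 1.41e-06). Its myelin responses ran from -0.04 ± 0.11 in KO to 0.37 ± 0.16 in Het, none called.

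Set side by side, the myelin responses differed by genotype in Abcg1, Abca1 and Mylip. In E4, 3 of the 9 genes rose, 0 fell and 6 were not called, where 12.1% of all tested genes were called (8.18% higher, 3.94% lower). Higher calls made up 67.5% of all calls in E4 and 66.5% in E3, and 51.8% and 52.8% without trimmed-mean factors, where the same 3 members were called higher. The median of the 9 differences was 0.30, beside 0.03 over all tested genes. In E3 the same 3 genes rose, 0 fell and 6 were not called, beside 5.15% of all genes (3.42% higher, 1.73% lower), with a median of 0.26 for the 9 and 0.01 for all. In KO 2 rose, 0 fell and 7 were not called, beside 2.29% (1.16% higher, 1.13% lower), with medians of 0.17 and 0.04. The KO count holds Cd5l, which passed the filter on low values only through E4 and KO libraries. Het had 0 of 9 called, beside 0.119% of all genes, with 1047 of 10894 genes at an unadjusted p under 0.05 in limma. WT had 0 of 9 called, beside 6.16% of all genes (5.43% higher, 0.734% lower), with 2095 genes at that p. Library weights, which gave more calls than expected between parts of a group in earlier results of these data, are an alternative only. Weighting all 47 libraries in limma gave 5 members called in E4, 4 in E3, 3 in KO, 4 in Het and 0 in WT. The added calls were Pltp and Arl4c in E4, Cd5l in E3 and Nr1h3 in KO, all higher. In Het they were Abcg1 and Arl4c higher, and Abca1 (-0.65, limma adjusted p = 0.00294) and Lpcat3 (-0.58, limma adjusted p = 9.13e-04) lower. Fitting all 47 unweighted ended the calls of Abca1 in E4 and E3 (limma adjusted p = 0.148 and 0.196), of Mylip in E3 (0.0866) and of Pltp and Cd5l in KO (0.9996 and 0.162). The share of TPM in coding genes stood at 18.6 ± 3.39% in E4 myelin and 12.1 ± 3.24% in E4 untreated libraries (SD, n = 5 each), and at 15.6 ± 6.04% in E3 myelin and 13.6 ± 2.33% in E3 untreated libraries (SD, n = 4 each). In E4, 3 of 12 microglial markers were lower and 1 higher after myelin, and 2 of 3 tested endothelial and 1 of 3 tested border macrophage and monocyte markers were lower. In E3, 1 of 12 microglial markers was lower and 1 higher, 1 of 3 endothelial markers was lower and 1 of 2 tested oligodendrocyte markers was higher. In KO, 2 of 8 astrocyte markers were lower after myelin. In WT, 3 of 3 tested border macrophage and monocyte markers were lower and 1 of 8 astrocyte markers was higher. The part of these in the result was not tested.

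**Figure D3:**
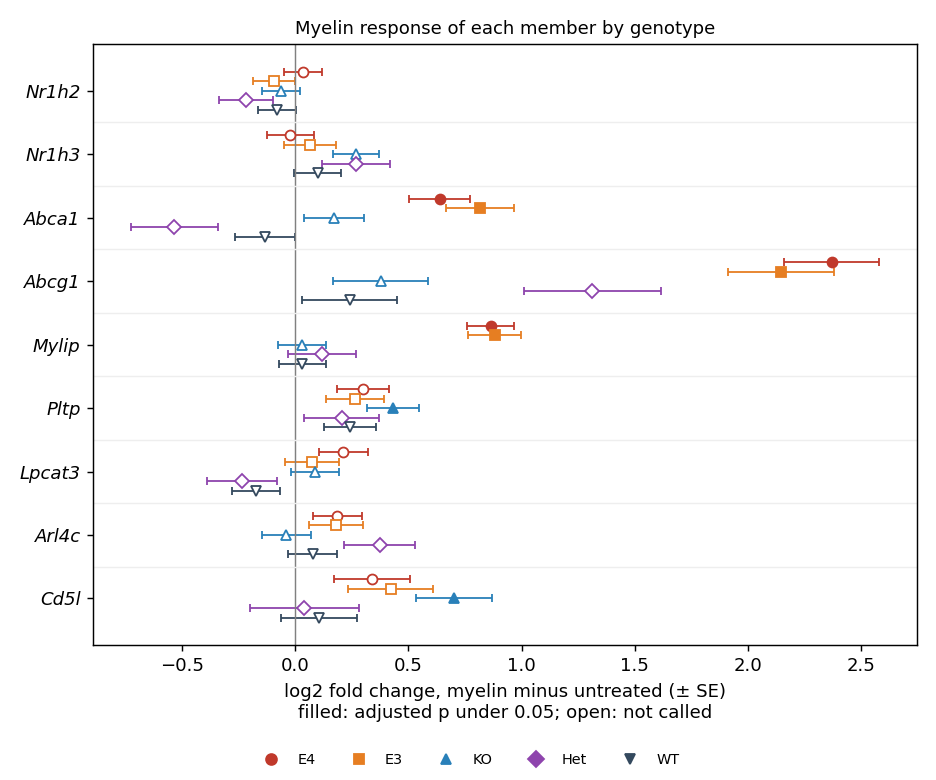
Log2 fold change of each of the 9 genes between myelin and untreated libraries (horizontal axis, bars are SE) in E4, E3, KO, Het and WT microglia, with filled symbols for an adjusted p under 0.05. Abcg1 lies at 2.37 in E4 and 2.14 in E3, against 0.38 in KO and 0.24 in WT, and the receptors Nr1h2 and Nr1h3 lie between -0.22 and 0.27 with no call.

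The difference between responses was tested directly. Set against WT, the mean of the E4 and E3 responses was larger by 2.02 ± 0.26 for Abcg1 (limma adjusted p = 1.42e-05), 0.84 ± 0.13 for Mylip (limma adjusted p = 1.67e-04) and 0.86 ± 0.17 for Abca1 (limma adjusted p = 0.00207). These were 3 of the 9 genes, beside 9.59% of all genes (6.54% higher, 3.06% lower). Higher calls were 68.1% of these, and 56.1% without trimmed-mean factors. Set against KO, it was larger by 1.88 ± 0.26 for Abcg1 (limma adjusted p = 7.19e-05) and 0.84 ± 0.13 for Mylip (limma adjusted p = 2.96e-04), and Abca1 had a value of 0.56 ± 0.17 that was not called (limma adjusted p = 0.0830). These were 2 of the 9, beside 1.51% of all genes (0.652% higher, 0.863% lower). Without E3 myelin replicate 2, Abca1 passed as well (limma adjusted p = 0.0256). Between E4 and E3 no response was called different in limma, for 0 of 9 members and 0.0% of all genes, with 466 genes at an unadjusted p under 0.05 and 37 genes called when all libraries were weighted. The interval of the difference was -0.41 to 0.86 for Abcg1, -0.59 to 0.23 for Abca1 and -0.34 to 0.30 for Mylip (95% of each fit). With all 47 libraries unweighted, Abca1 and Mylip lost the call against WT (limma adjusted p = 0.222 and 0.143), as did Abcg1 and Mylip against KO (limma adjusted p = 0.0670 and 0.233). These comparisons share their E4 and E3 libraries.

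Between genotypes, E4 held more Nr1h3, Pltp and Cd5l than E3 after myelin and untreated, and more Abca1 untreated. That was 3 of the 9 genes higher after myelin and 4 higher untreated, with 0 lower in either. Both counts hold Cd5l, which passed the filter on low values only through E4 and KO libraries. All tested genes gave 11.1% called after myelin (5.99% higher, 5.12% lower) and 16.8% called untreated (6.83% higher, 10.0% lower). The median of the 9 was 0.41 after myelin and 0.36 untreated, and the median of all genes was -0.00 in each. Astrocyte markers moved with this difference, 5 of 8 being higher in E4 than in E3 after myelin and 6 of 8 untreated, and 2 of 6 tested fibroblast markers were lower after myelin and 5 of 6 untreated. Of 12 microglial markers, 1 was higher in E4 after myelin and 3 untreated, with 0 lower in either. With all 47 libraries unweighted, Pltp lost its call after myelin (limma adjusted p = 0.449), and Pltp and Abca1 lost theirs untreated (limma adjusted p = 0.419 and 0.168).

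KO microglia stood above WT in 8 of the 9 genes after myelin and in 7 untreated, and Abca1 was the 1 gene lower, untreated. Cd5l is in both counts of higher genes, though it passed the filter on low values only through E4 and KO libraries. Most of the transcriptome was called in this comparison, 54.9% of tested genes after myelin (30.1% higher, 24.8% lower) and 56.1% untreated (25.8% higher, 30.3% lower). After myelin the median of the 9 was 0.75, beside 0.05 over all genes, and untreated it was 0.63, beside -0.03. Fibroblast markers moved with it, 6 of 6 tested being lower in KO in each condition, and of 12 microglial markers 9 were higher and 1 lower after myelin, and 5 higher and 3 lower untreated. Of 8 astrocyte markers, 6 were lower in KO after myelin, and 1 was higher and 2 lower untreated. With all 47 libraries unweighted, Nr1h2 and Lpcat3 lost the call after myelin (limma adjusted p = 0.442 and 0.412), and Nr1h2, Abca1 and Pltp lost it untreated (limma adjusted p = 0.486, 0.0661 and 0.125).

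**Figure D4:**
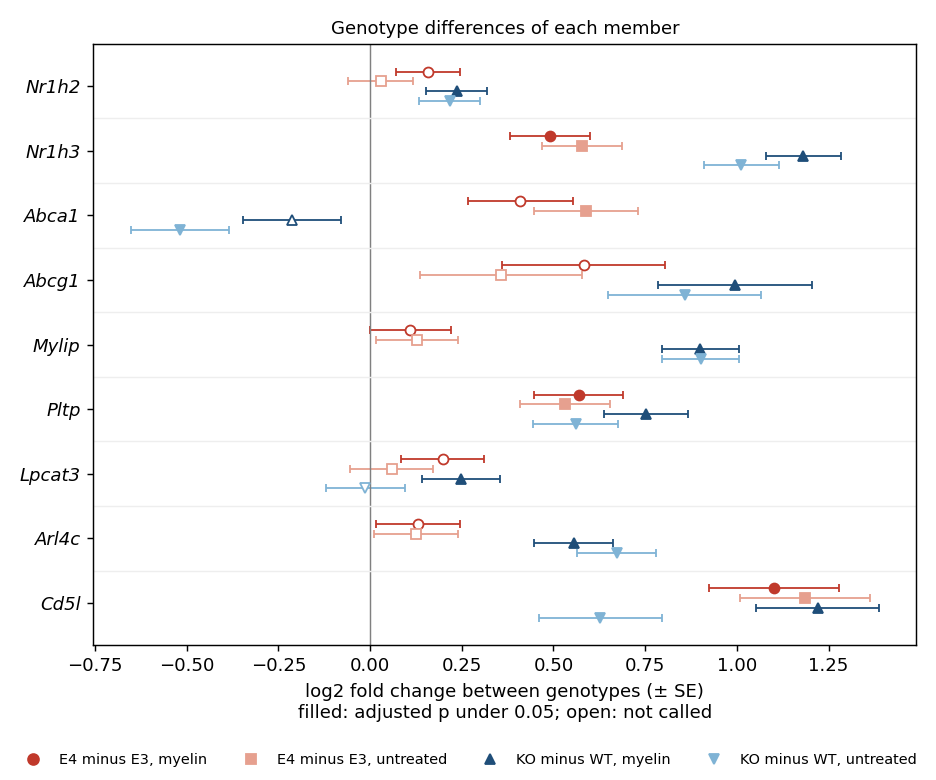
Log2 fold change of each of the 9 genes between genotypes (horizontal axis, bars are SE), as E4 minus E3 and KO minus WT, after myelin and untreated, with filled symbols for an adjusted p under 0.05. Nr1h3, Pltp and Cd5l lie above 0 in all 4 comparisons, while Abca1 lies above 0 in E4 minus E3 and below 0 in KO minus WT.

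The order of levels, over the fitted libraries alone and so over 2 Het myelin and 3 Het untreated libraries, differed between genes. For Abcg1 the means ran from 44.4 scaled TPM in E4 myelin through 29.7 in E3 myelin, 25.2 in Het myelin, 16.3 in KO myelin, 12.2 in KO untreated, 12.05 in Het untreated, 7.82 in E4 untreated, 7.66 in WT myelin and 6.28 in WT untreated to 5.84 in E3 untreated. Among neighbours in this order, Het myelin and KO myelin were the pair whose fitted libraries did not overlap, while Het myelin replicate 2, left out, lay below KO myelin. For Mylip the order was led by KO myelin (34.5), KO untreated (33.8) and Het myelin (32.8) and closed by E4 untreated (15.9) and E3 untreated (14.4), and the break without overlap fell between E3 myelin (27.4) and WT myelin (18.0). For Abca1 it was led by E4 myelin (82.7) and WT untreated (81.6), which overlapped, and closed by E3 untreated (34.7), which lay below the 2 fitted Het myelin libraries, though not below Het myelin replicate 2. Of the other members, Nr1h3 had a break between KO myelin and KO untreated, Pltp between E4 myelin and E4 untreated, Arl4c between the 2 fitted Het myelin libraries and KO untreated, and Cd5l between E4 untreated and KO untreated. For Arl4c, Het myelin replicate 2, left out, held 26.2 scaled TPM, below KO untreated replicate 3 at 26.8.

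Other genes of the pathway were read from lists drawn up alongside the 9. Of 18 further LXR targets, 14 were measured. In E4, 4 of 14 rose after myelin and 0 fell, beside 8.18% of all tested genes higher and 3.94% lower. The rise was led by reads on mouse Apoe (1.41 ± 0.18) and by lipoprotein lipase, Lpl (0.64 ± 0.13). In E4 and E3 cells reads on Apoe are not the level of human APOE, whose reads need not map there. In E3, 2 of 14 rose and 1 fell, beside 3.42% of all genes higher and 1.73% lower. The fatty acid synthase Fasn was lower (-0.72 ± 0.16) and the phagocytic receptor Mertk higher (0.62 ± 0.16). None of the 14 was called in KO or WT, beside 2.29% and 6.16% of all genes. In Het 0 rose and 1 fell, beside 0.119% of all genes called. The median of this list was -0.10 in E4 and 0.00 in E3, against 0.03 and 0.01 over all genes. Of 13 measured receptor partners and cofactors, 0 were called in E4, and in E3 1 rose, the corepressor component Tbl1xr1 (0.87 ± 0.19). In WT 2 of the 13 rose, beside 5.43% of all genes higher, and in KO and Het 0 were called.

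Of 21 measured genes of sterol synthesis and uptake, 13 fell in E4 after myelin and 8 were not called, beside 3.94% of all tested genes lower. In E3, 8 of them fell and 13 were not called, beside 1.73% of all genes lower, and 0 were higher in either genotype. The farnesyl diphosphate synthase Fdps fell by 0.79 ± 0.08 in E4 and by 0.73 ± 0.09 in E3. Mvd, an enzyme of the mevalonate pathway, fell by 0.54 ± 0.09 in E3. The medians of this list were -0.39 in E4 and -0.30 in E3. In KO 0 of 21 were called, in Het 2 fell and in WT 1 fell, beside 1.13%, 0.119% and 0.734% of all genes lower. Of 15 measured genes of oxysterol synthesis and cholesterol supply, 6 rose and 2 fell in E4, and 3 rose and 1 fell in E3. Over all genes, 8.18% were higher and 3.94% lower in E4, and 3.42% higher and 1.73% lower in E3. Soat1, which esterifies cholesterol for storage, rose by 0.51 ± 0.10 in E4 and by 0.55 ± 0.11 in E3. Gramd1b, which carries cholesterol from the plasma membrane to the endoplasmic reticulum, rose by 0.58 ± 0.12 in E4, and Nceh1, which hydrolyses cholesterol esters, rose by 0.48 ± 0.11 in E3. Ch25h, whose enzyme makes 25-hydroxycholesterol, was among the genes that fell in both and was the 1 gene of this list that rose in KO.

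Between KO and WT these lists are read beside 54.9% of all genes called after myelin and 56.1% untreated. Of 14 further LXR targets, 6 were higher and 8 lower in KO after myelin, and 3 were higher and 8 lower untreated, the lower ones including the deleted gene Apoe itself. Of 13 receptor partners, 7 were higher and 1 lower in KO in each condition. Of 21 genes of sterol synthesis and uptake, 18 were higher after myelin and 7 untreated, with 0 lower. Of 15 genes of oxysterol synthesis and cholesterol supply, 11 were higher and 1 lower after myelin, and 9 higher and 2 lower untreated. E4 against E3, with 11.1% of all genes called after myelin and 16.8% untreated, had 6 of 14 further LXR targets higher after myelin and 5 untreated, with 0 lower, and 1 of 13 receptor partners higher after myelin and 0 untreated.

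The 5 genes whose means over the 10 groups were most like those of Abcg1 were sought among all tested genes. They were Il18bp, which binds interleukin 18 (Pearson r = 0.933), the cathepsin gene Ctsz (0.891), the phospholipase gene Plcb4 (0.885), Cd28 (0.868) and the heparanase gene Hpse (0.855). Il18bp averaged 19.7 scaled TPM in E4 myelin, 7.75 in E4 untreated, 12.7 in E3 myelin and 5.48 in E3 untreated libraries, and 5.59 in WT myelin against 4.003 in WT untreated libraries. Of the members, Mylip was most like Abcg1 (0.739) and Nr1h2 least (0.0255). The 10 means share libraries within a group, and these values describe them with no test.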

How the data were processed

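RNA of cultured microglia was sequenced after polyA selection with a low-input SMARTer kit, per the labels' protocols. The authors deposited TPM, length-corrected transcript shares, for 53697 genes in 47 libraries. Salmon 0.13.1, limma 3.40.6 and the build mm10 are named in the submitters' processing notes, and the annotation release is not given in the sources used here. TPM give no read depth, so no counting interval is given. The 9 genes, the pathway and marker lists and the tests were chosen with earlier results of these data known.

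Each library was rescaled to its nuclear protein-coding total and corrected by a trimmed-mean factor (trims of 30% on ratios and 5% on levels). Genes with 5 scaled TPM or more in at least 4 libraries were kept, 10894 in all, among protein-coding and lincRNA genes. All 9 members passed, Cd5l through E4 and KO libraries. limma 3.58.1 (R 4.3.3) was fitted to log2(scaled TPM + 1) with 1 mean per group and a mean-variance trend, over 43 libraries, leaving out 4 Het libraries with under 6% coding content. P-values were adjusted by the Benjamini-Hochberg method over all tested genes, for each of 12 comparisons. Groups followed the labels. All 9 members are named, with the 2 called genes of largest change per pathway list and response in E4 and E3, and the 5 genes most like Abcg1, except 1 gene that is not reported here. Ch25h was chosen after its values were seen. In simulated data for the E4 response, 93% of 100 genes changed 2-fold and 75% of 100 changed 1.5-fold were called, with 3 false calls among 10894 genes. Changed genes were drawn above a minimum mean level, below which Cd5l lies. The noise was normal and independent between libraries, around 1 mean per gene in all groups. These figures therefore need not hold for low genes or where libraries vary together. Gene positions come from GENCODE on GRCm38, and promoters from RefSeq on GRCm38.p6. Alternatives were library weights, all 47 libraries unweighted, no trimmed-mean factor, a pseudocount of 0.1, no filter, a filter at 10, a replicate block, and each library left out in turn. Weights were kept out of the main fit because in earlier results they gave more calls than expected between parts of a group.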

Additional observations from a re-analysis of the deposited data

Results flagged for a closer look

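Among 90 pairs of a member and a group, 4 held a library that stood far from the others of its group. A test of this kind picks out about 1 in 20 groups by chance. Abcg1 stood at 25.0 scaled TPM in Het untreated replicate 2, against 2.66 to 6.56 in the other Het untreated libraries. Nr1h2 stood at 76.2 in E3 untreated replicate 1, against 91.7 to 93.6 in the others. Nr1h3 stood at 11.1 in E4 myelin replicate 4, against 14.2 to 15.4 in the others. Cd5l stood at 0.917 in WT myelin replicate 3, against 1.86 to 2.16 in the others.

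The myelin response differed between genotypes in 3 members. The mean response of E4 and E3 exceeded that of WT by 2.02 for Abcg1, 0.86 for Abca1 and 0.84 for Mylip on the log2 scale. It exceeded that of KO by 1.88 for Abcg1 and by 0.84 for Mylip.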

How the results depend on the processing

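No called member changed direction in any of the alternatives. Library weights moved the members called in E4 to 5, in Het to 4 and between E4 and E3 after myelin to 6. All 47 libraries unweighted gave 1 member in E3, 0 in KO, 1 in Het, 2 between E4 and E3 untreated, 5 between KO and WT untreated, 1 for the human APOE responses against WT and 0 against KO. In Het, 1 member (Abcg1) was called without trimmed-mean factors, with a pseudocount of 0.1, with no filter and with the replicate block. In KO, 1 was called with no filter and 1 with a filter at 10, where Cd5l was not tested. Leaving out each library in turn gave 0 to 1 in KO, 0 to 1 in Het, 3 to 4 between E4 and E3 after myelin, 7 to 8 between KO and WT in each condition and 2 to 3 for the human APOE responses against KO. The members called stayed at 3 in E4, 3 in E3, 0 in WT and 3 for the human APOE responses against WT.

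Genes called over the transcriptome moved further. In E4 there were 1320, with weights 2481, all 47 unweighted 224, and 785 (without untreated replicate 1) to 1497 with a library left out. In E3 there were 561, with weights 1922, unweighted 5, with no filter 297, and 84 (without myelin replicate 3) to 687 with a library left out. In KO there were 249, with weights 642, unweighted 13, and 119 (without myelin replicate 5) to 255 with a library left out. In Het there were 13, with weights 2024, unweighted 29, with no filter 529, 27 with a pseudocount of 0.1, 21 without trimmed-mean factors, 6 with the block, and 0 to 552 (without myelin replicate 4) with a library left out. In WT there were 671, with weights 1054, unweighted 262, and 305 (without untreated replicate 4) to 949 with a library left out. Between E4 and E3 there were 1211 after myelin (2959 with weights, 472 unweighted) and 1834 untreated (2877 with weights, 657 unweighted). The E4 and E3 responses differed in 0 genes, and in 1 with the block and 37 with weights. Human APOE responses differed from WT in 1045, unweighted 8, with no filter 475, with the block 1662, and 411 (without WT myelin replicate 1) to 1572 (without WT myelin replicate 5). They differed from KO in 165, with weights 704, unweighted 0, with no filter 82, and 66 (without KO untreated replicate 1) to 200 with a library left out. The cause was not tested.

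Replicate numbers were shared by the groups, but same-numbered libraries correlated between -0.197 and 0.455 in their deviations, so the replicate block is not read as a pairing. With it Pltp in E4 was called (limma adjusted p = 0.0342), as were Abcg1 in Het (2.50, limma adjusted p = 2.18e-05) and Lpcat3 in the human APOE responses against WT (limma adjusted p = 0.0483). Depth is unknown, and Cd5l, near the filter, is the member with the least signal.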
